A study of Musculus with 2 samples.

Results

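The 27 genes described here cover cholesterol synthesis and sterol sensing, chosen by pathway membership from the 32285 genes that each deposited matrix lists. All 27 were found by symbol, with 1 entry each. They comprise 4 genes of sterol sensing, 8 enzymes from the first condensation steps through mevalonate to the isoprenoid diphosphates, 12 enzymes from squalene to the sterol ring, and 3 sterol carriers. They were measured in the stromal vascular fraction of mouse subcutaneous white adipose tissue, the cells that stay behind once mature adipocytes are floated off after collagenase digestion, by droplet single-cell RNA sequencing (10x Genomics). The control group, of genotype WT, and the LPCAT3-AKO group, of genotype LPCAT3 knockout, are 1 library each. Both groups were fed CD per the series text, and the sample labels give an age of 5 weeks for both where the series text gives 2 months, so the age is not settled. Sources used here say neither how many mice were pooled into a library, nor which promoter limits the deletion to which cells, nor which exons it removes.

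Cholesterol is built from acetyl-CoA through mevalonate, isoprenoid diphosphates, squalene and lanosterol. When the membrane of the endoplasmic reticulum is rich in sterol, INSIG proteins hold the escort protein SCAP together with the transcription factor precursor SREBP2 in that membrane. When sterol is scarce, SCAP carries SREBP2 to the Golgi, where proteases free the part that switches on the genes of the pathway. Cells also receive cholesterol by uptake, and NPC2 and NPC1 pass it out of the lysosome. LPCAT3 places polyunsaturated fatty acids into phosphatidylcholine of the same membrane, and the series as a whole concerns that remodelling in adipose tissue and insulin sensitivity.

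The control matrix held 13831 barcodes and 111669076 UMIs (unique molecules), the LPCAT3-AKO matrix 12806 barcodes and 119355147 UMIs. After filtering, 11191 control and 10576 LPCAT3-AKO cells were left, at medians of 8078 and 8599.5 UMIs. The libraries shared 58 barcodes, 36 of them among the cells left. Cell classes were set by marker genes, none of which is a member of the pathway list. They took in 5558 control and 5719 LPCAT3-AKO fibroblasts, 4112 and 3203 macrophages, 347 and 323 dendritic cells, 196 and 209 vascular endothelial cells, 109 and 241 epithelial cells, and 117 and 146 T cells. CPM here are UMIs of a gene per 1000000 UMIs of its class in 1 library, and values given in pairs are those of the control first and LPCAT3-AKO second. Lpcat3 itself was detected at 26.9 and 29.4 CPM in fibroblasts, 21.4 and 24.1 in macrophages, 13 and 15 in dendritic cells, 48.5 and 45.6 in endothelial cells, 65.8 and 63.2 in epithelial cells and 20.9 and 19.7 in T cells. The sequenced tag may lie outside the deleted exons, and the classes measured may not carry the deletion, so these levels do not check the labels.

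Markers of each class were read in the other classes too. Endothelial cells carried a summed 2259 and 2403 CPM of the 10 mural markers, beside 9646 and 9867 CPM of their own 10 markers. T cells carried 2013 and 1337 CPM of the 11 macrophage markers, beside 3737 and 3982 CPM of their own 8. Dendritic cells carried 2843 and 3222 CPM of the macrophage markers. Their own lists of 8 markers each summed to 1705 and 1653 CPM (type 1), 1841 and 2275 (type 2) and 1978 and 794 (mature). Macrophages carried 1837 and 1743 CPM of the type 2 dendritic markers, beside 20574 and 20342 of their own. The part of macrophage RNA in the dendritic values was not tested. Epithelial cells showed Epcam at 1595 and 1368 CPM and Krt19 at 6297 and 5606 CPM, while the basal keratins Krt5 and Krt14 lay between 1.15 and 8.07 CPM. With 1 library per group, no difference below has a replicate check, and no p-value was computed. A gene was called higher or lower in a comparison when it reached 20 CPM on the higher side, differed by a ratio of 1.5 or more, and had a 95% counting interval of that ratio that leaves out 1. All intervals cover counting error only.

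The 4 sensing genes were spread unevenly over the cell classes. Srebf2, which encodes SREBP2, stood highest in dendritic cells, at 83.5 CPM (95% interval 72.8 to 95.3) and 88.2 CPM (77.6 to 99.7). It followed in epithelial cells at 51.3 and 59.6 CPM and in T cells at 46.0 and 57.3, whose counting intervals overlap. Fibroblasts had 22.3 and 27.6 CPM, macrophages 25 and 29.2, and endothelial cells 26.6 and 24.4. The epithelial level was 0.614 times (0.489 to 0.767) and 0.677 times (0.579 to 0.792) the dendritic one, so the first and second class differ beyond counting error, whereas the 3 lowest classes keep no fixed order between the libraries.

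Scap encodes the escort of SREBP2. Its levels were 19.5 and 22.0 CPM in fibroblasts, 13.5 and 11.6 in macrophages, 21.3 and 24.0 in dendritic cells, 27.1 and 24.9 in endothelial cells, 17.0 and 23.9 in epithelial cells and 29.3 and 12.5 in T cells. Macrophages were its lowest class in both libraries. The T cell values rest on 14 and 7 UMIs, and their order against the other classes differs between the libraries.

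The Insig1 and Insig2 genes, whose proteins do the same retaining work, had their highest levels in different cell classes. Insig1 was highest in macrophages, at 49.8 and 47.3 CPM, and lowest in epithelial cells, at 1.61 and 4.34 CPM from 4 and 34 UMIs. Between these lay dendritic cells at 29.0 and 40.1, T cells at 29.3 and 28.6, fibroblasts at 21.4 and 24.9, and endothelial cells at 10.5 and 26.3. In control the macrophage level was 1.70 times (1.01 to 3.12) that of T cells, the second class. In LPCAT3-AKO it was 1.18 times (0.976 to 1.44) that of dendritic cells, so this lead is within counting error. Insig2 was instead highest in epithelial cells, at 70.6 and 63.1 CPM, with fibroblasts next at 56.6 and 49.5. The ratio of epithelial cells over fibroblasts had intervals from 1.06 to 1.45 and from 1.16 to 1.40, and stayed under 1.5. Insig2 was at 24.6 and 23.3 CPM in macrophages, 27.6 and 37.3 in endothelial cells, 17.2 and 20.6 in dendritic cells and 14.6 and 12.5 in T cells. So the epithelial cells with almost no Insig1 had the most Insig2, and the macrophages with the most Insig1 had less than fibroblasts of Insig2.

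**Figure D1:**
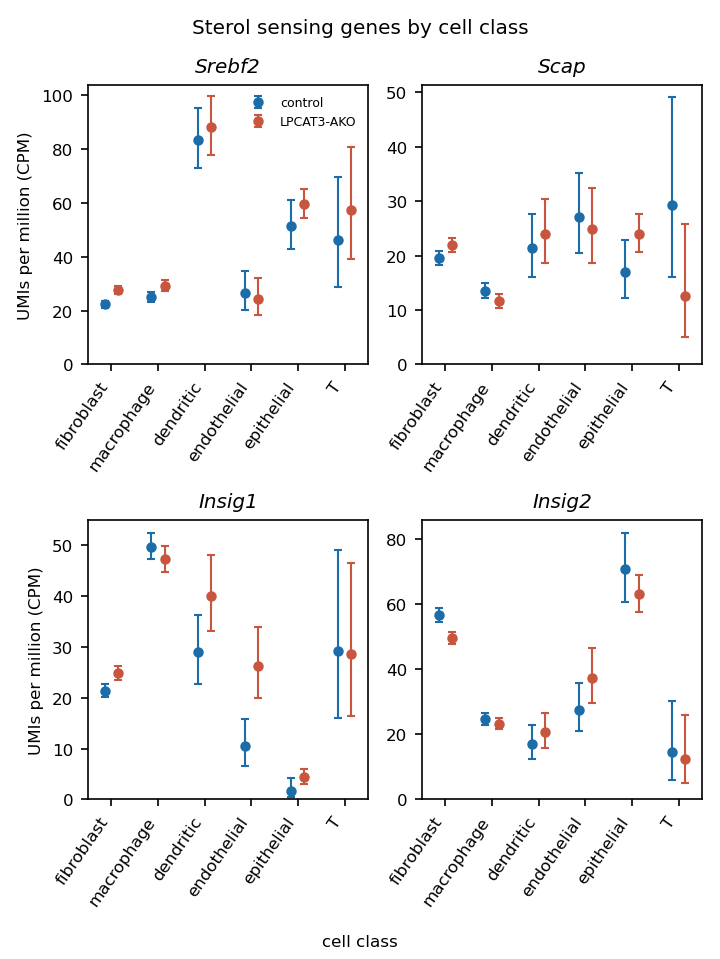
Level of the 4 sterol sensing genes in CPM (linear axis from 0) in each of 6 cell classes; points are the control (blue) and LPCAT3-AKO (red) library and bars are 95% Poisson intervals of counting error. Srebf2 peaks in dendritic cells at 83.5 and 88.2 CPM, and Insig1 drops to 1.61 and 4.34 CPM in epithelial cells, where Insig2 reaches 70.6 and 63.1 CPM.

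Among the 8 enzymes of the mevalonate and isoprenoid steps, Hmgcs1 and Ggps1 were both lower in macrophages than in fibroblasts, and Ggps1 in dendritic cells too. Hmgcs1 makes HMG-CoA, the precursor of mevalonate. It was at 33.8 and 37.0 CPM in fibroblasts, 35.6 and 33.2 in endothelial cells, 27.0 and 36.0 in epithelial cells, and lower in macrophages at 18.4 and 20.1. This Hmgcs1 difference was smaller for Dpp4-high cells, the largest fibroblast state described below, and absent for them in LPCAT3-AKO. Ggps1, which makes the geranylgeranyl diphosphate used to anchor proteins in membranes, had 36.2 and 37.5 CPM in fibroblasts, 50.8 and 38.7 in endothelial cells and 50 and 30.0 in epithelial cells. In macrophages Ggps1 had 17.8 and 16.3 CPM and in dendritic cells 16.0 and 15, and Hmgcs1 had 24.4 and 26.5 CPM in dendritic cells.

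Fdps was highest in epithelial cells in both libraries, while the highest class for Pmvk and Idi1 differed between the libraries. Fdps, which makes the farnesyl diphosphate that feeds both squalene and protein prenylation, was at 58.1 and 88.4 CPM in epithelial cells against 10.0 and 11.1 in fibroblasts and 6.11 and 6.80 in macrophages. Pmvk, a kinase acting on phosphomevalonate, was at 47.6 and 26.8 CPM in dendritic cells against 9.76 and 8.93 in fibroblasts. Epithelial cells had 15.3 and 28.0 CPM of Pmvk. Idi1, which interconverts the isoprenoid building blocks, was at 27.4 and 16.4 CPM in dendritic cells, 17.8 and 30.4 in epithelial cells and only 5.93 and 9.56 in fibroblasts. LPCAT3-AKO T cells had 23.3 CPM of Idi1. Acat2, Mvk and Mvd stayed under 20 CPM in each of the 6 classes. Acat2 overlaps its neighbour Tcp1 tail to tail, and sources used here do not say whether counting used strand, so its low counts may include reads of the neighbour.

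Both enzymes that commit carbon to sterols stood highest in the epithelial cells. Fdft1, the squalene synthase, had 36.3 CPM (29.2 to 44.6) in control and 32.8 (28.9 to 37.1) in LPCAT3-AKO epithelial cells. In fibroblasts it had 2.91 and 2.82 CPM, which makes the epithelial level 12.5 times (9.49 to 16.3) and 11.6 times (9.48 to 14.3) as high. Sqle, the squalene epoxidase, had 38.3 and 29.2 CPM in epithelial cells against 2.70 and 3.82 in fibroblasts, a ratio of 14.2 (10.8 to 18.5) and 7.66 (6.32 to 9.29). No single epithelial cell gave more than 6.32% of the UMIs of either gene. In the other 5 classes Fdft1 did not exceed 12.5 CPM, and Sqle did not exceed 6.28.

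Of the later enzymes, Ebp was highest in epithelial cells in both libraries, and Sc5d and Cyp51 had no class that led in both. Ebp, a sterol isomerase, was at 113 and 125 CPM in epithelial cells and between 39.0 and 54.6 CPM in the other 5 classes. Sc5d, the lathosterol oxidase, was at 33.1 and 29.9 CPM in epithelial cells and 23.8 and 31.3 in fibroblasts, and lower in macrophages at 8.43 and 10.2 and in dendritic cells at 8.0 and 5.57. Msmo1, a methylsterol oxidase, was at 17.0 and 25 CPM in epithelial cells and 9.57 and 12.5 in fibroblasts. Cyp51, the lanosterol demethylase, was at 31.4 and 10.7 CPM in T cells, 17.2 and 23.0 in dendritic cells, 10.9 and 19.0 in epithelial cells and 7.69 and 8.65 in fibroblasts. Lss, Tm7sf2, Nsdhl, Hsd17b7 and Dhcr7, which close the sterol ring, reduce it or strip its methyl groups, stayed under 20 CPM in each of the 6 classes.

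Lbr ran the other way. It encodes a protein of the inner nuclear membrane that binds lamin B and chromatin and also carries a sterol reductase domain. T cells had 180 and 168 CPM, macrophages 107 and 125, dendritic cells 77.4 and 117, endothelial cells 84.1 and 95.8, fibroblasts 22.7 and 19.5 and epithelial cells 16.5 and 25.7. Natural killer cells, of which there were 94 and 64, had 194 and 226 CPM. It was thus high in the immune and endothelial classes and low in the class with the most Fdft1 and Sqle.

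The 3 sterol carriers each had their own distribution. Npc1, the membrane part of the lysosomal exporter, was at 73.0 and 81.7 CPM in macrophages against 31.6 and 29.5 in fibroblasts, and lay between 17.6 and 29.3 CPM in the remaining classes. Npc2, its soluble partner, was at 810 and 893 CPM in macrophages, 948 and 836 in dendritic cells and 531 and 588 in fibroblasts, but at 161 and 157 in endothelial and 120 and 123 in epithelial cells. Stard4, a cytosolic carrier, was at 58.6 and 57.3 CPM in T cells, 39.0 and 44.2 in endothelial cells, 30.9 and 33.1 in dendritic cells and 9.38 and 13.6 in fibroblasts. In natural killer cells Stard4 reached 109 and 202 CPM and was called higher than in T cells in both libraries, a call that 5.05% of all genes tested shared, and 0 members were lower, where 3.29% of all genes were. Those values rest on 32 and 42 UMIs.

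**Figure D2:**
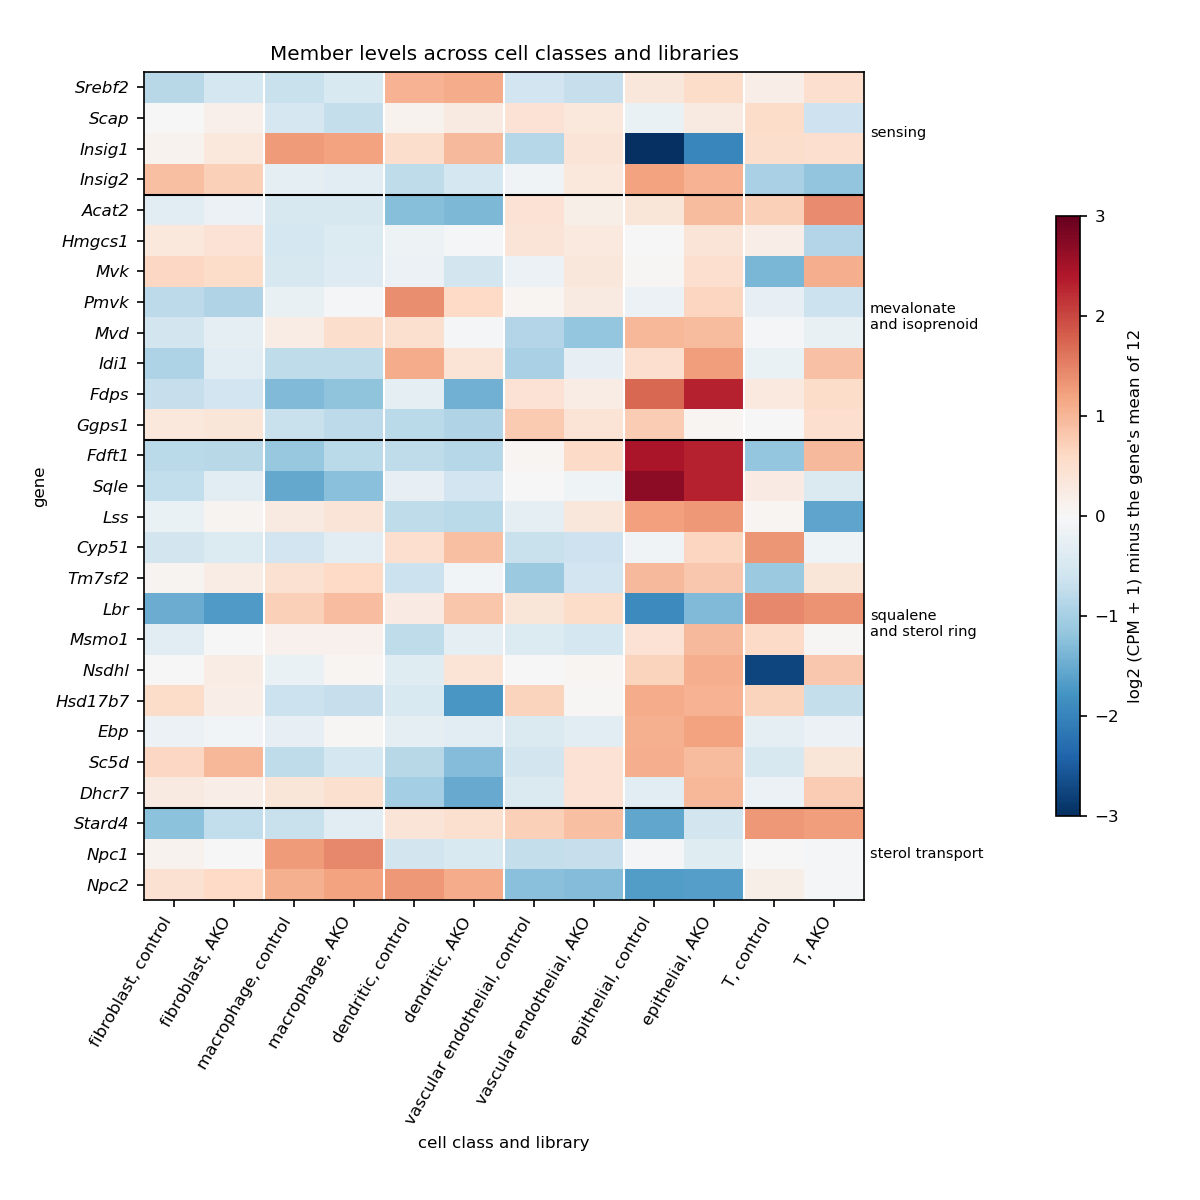
Heat map of the 27 genes (rows, grouped by role) in 6 cell classes of the control and LPCAT3-AKO library (columns); colour is log2 (CPM + 1) minus the gene's mean over the 12 columns, red for above and blue for below that mean. Fdft1, Sqle and Fdps stand out red in epithelial cells of both libraries, where Insig1, Lbr and Npc2 are blue.

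Counted over all 27 genes, the highest of the 6 classes was the epithelial one for 11 in the control, for 14 in LPCAT3-AKO, and for the same 10 in both. These counts take in members near the floor, such as Tm7sf2 at 3.23 and 2.81 CPM. No share over all genes was computed beside them, so they are not read as a result about the list. Of the 18 members that reached 20 CPM in some class of each library, 5 were highest in epithelial cells in both (Insig2, Fdps, Fdft1, Sqle and Ebp), against 20% of 9003 genes. Macrophages were the highest class for 2 (Insig1 and Npc1), against 14.2%, T cells for 2 (Lbr and Stard4), against 11.7%, and dendritic cells for 1 (Srebf2), against 6.1%. Fibroblasts and endothelial cells were the highest class for 0, against 12.9% and 15.9%.

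Set against fibroblasts, 5 of the 13 members tested were called higher in epithelial cells in both libraries, namely Srebf2, Fdps, Fdft1, Sqle and Ebp, where 28.3% of all genes were. Lower were 2, Insig1 and Npc2, against 26.6% of all genes. The median log2 ratio of epithelial cells over fibroblasts across the 27 members was 0.57 and 0.84, beside 0.17 and 0.10 across all genes tested. Here and in later medians, genes tested are only those that reached 20 CPM, while the 27 include members below it. With no minimum level, an alternative chosen after seeing the data, 13 members were higher in both libraries, against 19.2% of all genes, and Acat2, Pmvk, Mvd, Idi1, Lss, Tm7sf2, Msmo1 and Nsdhl joined. That share is over 19114 genes with any UMI, of which only 6912 reached 20 CPM, so it too is unlike the members in level. The epithelial cells were also the deepest, at medians of 17444 and 23217 UMIs per cell against 9426 and 9182 in fibroblasts, and the part of depth in these ratios was not tested.

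In macrophages, 4 of 10 members tested were called higher than in fibroblasts (Insig1, Lbr, Npc1 and Npc2) and 4 lower (Insig2, Hmgcs1, Ggps1 and Sc5d), against 31.1% and 26.5% of all genes. In dendritic cells 4 of 13 were higher (Srebf2, Pmvk, Lbr and Stard4) and 3 lower (Insig2, Ggps1 and Sc5d), against 23.4% and 36.6%. In endothelial cells 2 of 12 were higher (Lbr and Stard4) and 3 lower (Sc5d, Npc1 and Npc2), against 28.3% and 19% of all genes. In T cells 3 of 13 were higher (Srebf2, Lbr and Stard4) and 1 lower (Insig2), against 25.6% and 27.3%. By count, members called higher were close to or somewhat above the share over all genes in macrophages, dendritic and T cells and below it in endothelial cells, and only 1 was lower in T cells. Lbr was higher than in fibroblasts in 4 of the 5 classes, all but the epithelial one. Stard4 was higher in 3, and Insig2 was lower in the 3 classes of immune cells.

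Against macrophages, epithelial cells had 8 of 13 members tested higher (Srebf2, Insig2, Fdps, Ggps1, Fdft1, Sqle, Ebp and Sc5d) and 4 lower (Insig1, Lbr, Npc1 and Npc2), where 31% and 31.1% of all genes were. Against dendritic cells they had 7 of 17 higher and 4 lower, where 38.9% and 23.2% of all genes were, and against endothelial cells 6 of 14 higher and 2 lower, where 22.9% and 31.1% were. Fdps, Fdft1, Sqle, Ebp and Insig2 were higher in all 3 of these comparisons. Against macrophages, dendritic cells had 4 of 11 higher (Srebf2, Scap, Pmvk and Stard4) and Npc1 alone lower, where 12.6% and 30.1% of all genes were. Endothelial cells had 4 of 11 higher than macrophages (Scap, Hmgcs1, Ggps1 and Stard4) and 3 lower (Insig1, Npc1 and Npc2), where 29.2% and 24.4% were. T cells had 3 of 11 higher (Srebf2, Fdps and Stard4) and the same 3 lower, where 18% and 24.7% were.

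Between fibroblast states the differences ran mostly one way. The Dpp4-high cells, set by markers of the interstitial progenitors such as Dpp4 and Pi16, came to 3970 and 3505 cells. The Icam1-high cells, set by markers of committed preadipocytes such as Icam1, Col15a1 and Pparg, came to 717 and 1175. Of the 12 members tested, 5 were called higher in Icam1-high than in Dpp4-high cells in both libraries, where 12.5% of all genes were. None was lower, where 12.4% of all genes were. The median log2 ratio over the 27 members was 0.39 and 0.27, beside 0.12 and 0.13 over all genes tested.

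Hmgcs1 showed one of the steepest of these differences. It was at 25.2 and 19.8 CPM in Dpp4-high cells, and at 96.5 and 89.1 CPM in Icam1-high cells, 3.84 times (3.46 to 4.25) and 4.50 times (4.07 to 4.97) as high. No single Icam1-high cell held more than 3.20% of its UMIs. Insig1, itself a target of SREBP2 whose protein damps the pathway, was at 15.8 and 17.9 CPM in Dpp4-high and 59.0 and 51.4 in Icam1-high cells. Msmo1 was at 6.91 and 7.5 CPM against 26.3 and 32.4. The counting intervals of the states did not overlap for any of these 3 genes. Srebf2 went from 19.7 and 23.5 to 35.1 and 39.2 CPM, and Scap from 17.1 and 18.2 to 29.5 and 32.9, smaller ratios than those of Hmgcs1 and Msmo1.

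Below the minimum level the same order appeared. Without a minimum, 10 of the 27 members were higher in Icam1-high cells in both libraries, against 11.3% of all genes, and Idi1, Fdft1, Sqle, Cyp51 and Stard4 joined the 5 above. The share is over 18116 genes with any UMI, of which only 6305 reached 20 CPM, so it is not alike in level to the members. Sqle was at 1.40 and 1.2 CPM in Dpp4-high cells and 10.2 and 10.5 in Icam1-high cells, and Idi1 at 4.19 and 4.70 against 18.3 and 24.1. Only Pmvk was lower, at 10.5 and 9.94 against 5.55 and 6.18 CPM, where 8.4% of all genes were lower. Other members differed little between the states: Insig2 was at 60.7 and 52.8 CPM in Dpp4-high cells and 47.3 and 44.6 in Icam1-high cells, Ebp at 46.5 and 50.6 against 42.4 and 47.1, and Npc2 at 504 and 566 against 520 and 493. Summed over the 20 synthesis enzymes, Dpp4-high cells had 232 and 237 CPM and Icam1-high cells 375 and 387.

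**Figure D3:**
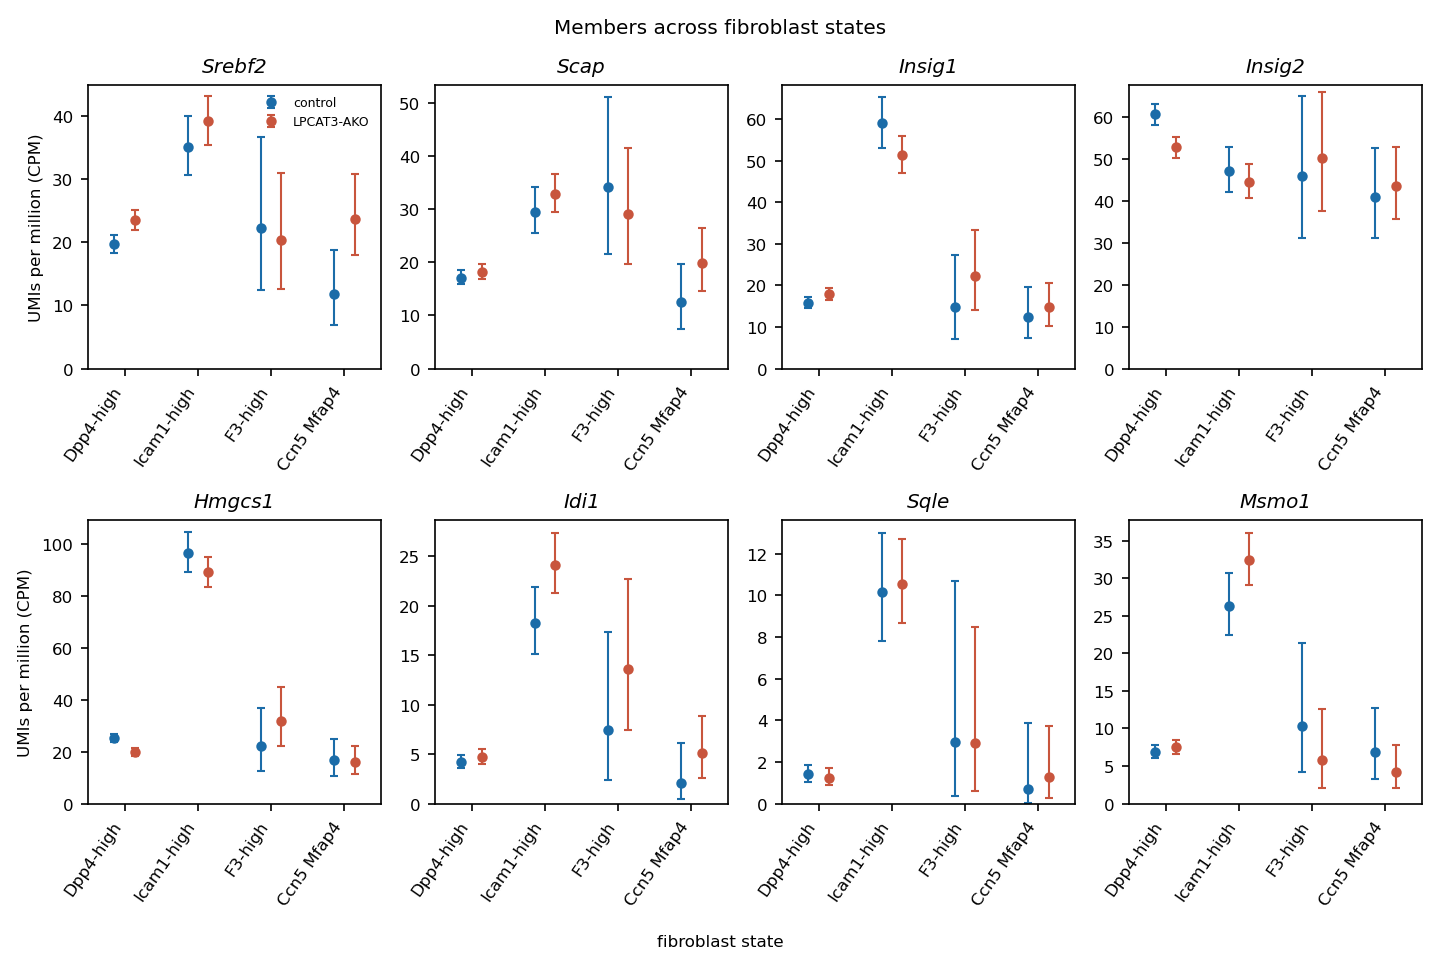
Level in CPM (linear axes from 0) of 8 genes in 4 fibroblast states; points are the control (blue) and LPCAT3-AKO (red) library, bars 95% Poisson intervals of counting error. Hmgcs1, Insig1, Idi1, Sqle and Msmo1 are several times higher in Icam1-high than in Dpp4-high cells of both libraries, while Insig2 is slightly lower.

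The smaller fibroblast states differed less from the Dpp4-high cells. In the F3-high cells, 94 and 143 in number, Scap alone was called, at 34.1 and 29.0 CPM, where 7.5% of all genes were higher and 8.81% lower. In the cells marked by Ccn5, Mfap4 and Cxcl13, 123 and 183 in number, Npc2 alone was called, at 849 and 1131 CPM, where 6.62% of all genes were higher and 7.84% lower. Hmgcs1 was at 22.2 and 31.9 CPM in the F3-high cells and 16.6 and 16.1 in the Ccn5 cells, both under the Icam1-high level.

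Among macrophages the states differed in few members. Resident cells, set by Lyve1, Folr2 and related markers, numbered 2598 and 1887, and the Lyz1 Retnla cells 635 and 513. Srebf2 was at 20.3 and 23.4 CPM in resident and 35.3 and 37.1 in Lyz1 Retnla cells, and Npc1 at 85.4 and 101 against 44.6 and 48.5. These were the 1 member called higher and the 1 called lower of 7 tested, where 11.8% and 22.6% of all genes were. The 87 and 220 dividing macrophages had Lbr at 260 and 240 CPM against 112 and 106 in resident cells. They also had more Srebf2 (40.4 and 37.6 CPM) and Ebp (69.3 and 72 against 40.8 and 45.2) and less Npc1 (52.6 and 63.7), 3 members higher and 1 lower of 9 tested, where 17.4% and 16.1% of all genes were.

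The macrophage states with fewest cells gave little more. Interferon-high cells, 269 and 48 in number, had 0 of 7 members called either way against resident cells, where 4.81% of all genes were higher and 3.95% lower. The 35 control and 158 LPCAT3-AKO monocytes had more Ebp (85.9 and 69.5 CPM) and Npc2 (1227 and 1699 CPM against 800 and 838), 2 of 9 tested, where 10.4% of all genes were higher, and 0 lower, where 13.7% were. The control monocyte values of other members rest on few UMIs, such as 17 for Srebf2.

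Idi1 differed by over 10 times between mature and other dendritic cells in both libraries. The type 1 cells (Xcr1, Clec9a) numbered 145 and 120, the type 2 cells (Cd209a, Clec10a) 156 and 182, and the mature cells (Ccr7, Fscn1, Ccl22) 43 and 15. Idi1 was at 10.5 and 4.72 CPM in type 1 cells, 11 and 13.8 in type 2 cells, and 162 (119 to 216) and 198 (119 to 310) CPM in mature cells. The mature level was 15.4 times (8.04 to 32) and 42.0 times (15.2 to 144) that of type 1 cells, and 14.7 and 14.3 times that of type 2 cells. It came from 46 UMIs in 18 of the 43 control cells and 19 UMIs in 6 of the 15 LPCAT3-AKO cells, with 19.6% and 31.6% of them from 1 cell.

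Some other members of the list went partly with Idi1. Pmvk was at 130 and 83.5 CPM in mature, 59.6 and 44.4 in type 1 and 16.1 and 13.2 in type 2 cells. Cyp51 was at 42.3 and 83.5 CPM in mature, 6.13 and 15.1 in type 1 and 22.1 and 24.7 in type 2 cells. The LPCAT3-AKO mature values of Pmvk and Cyp51 rest on few UMIs, as those 15 cells held 95833 UMIs in all. Npc2 was at 1670 and 1899 CPM in mature cells against 927 and 797 in type 1 and 795 and 807 in type 2 cells. Lbr was nearly absent from mature cells, with 1 control UMI (3.52 CPM) and 0 LPCAT3-AKO UMIs (95% interval up to 38.5 CPM), against 80.6 and 94.4 CPM in type 1 and 93.3 and 138 in type 2 cells. Fdft1 had 1 UMI in each library and Lss 0, too few to place them among the subtypes. Hmgcs1 was at 67.0 and 41.7 CPM in mature cells, from 19 and 4 UMIs, against 14 and 17.0 in type 1 cells, and was not called in both libraries.

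Counted by the rule, mature cells had Idi1, Cyp51 and Npc2 higher and Lbr lower than type 1 cells, of 11 tested, where 10.6% and 8.3% of all genes were higher and lower. Against type 2 cells they had Pmvk, Idi1 and Npc2 higher and Lbr lower, of 12 tested, where the shares were 8.34% and 9.92%. Type 2 cells had less Srebf2 (60.2 and 68.6 CPM against 111 and 121), Insig2 (11.9 and 13.2 against 24.5 and 32.1) and Pmvk than type 1 cells, 3 of 12 tested, where 8.16% of all genes were lower. None of the 12 was higher, where 13.5% of all genes were.

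**Figure D4:**
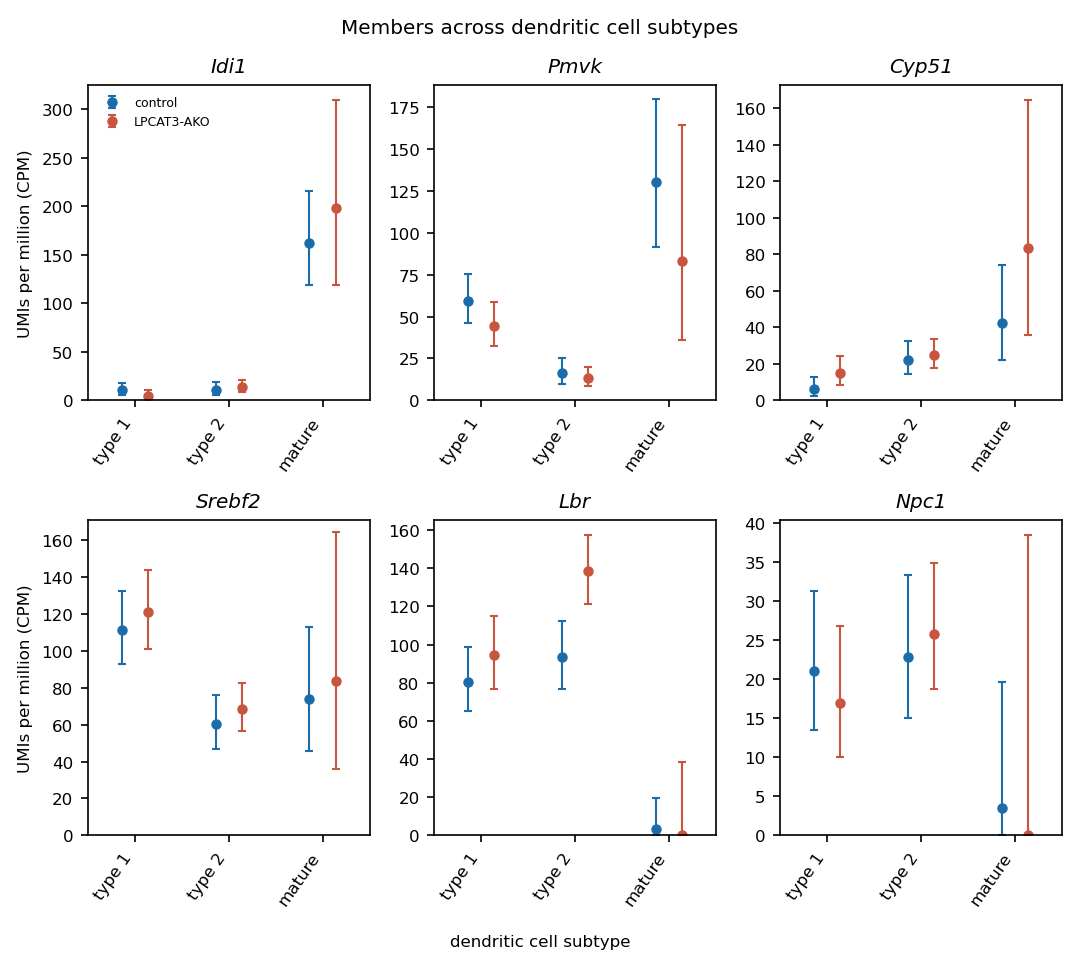
Level in CPM (linear axes from 0) of 6 genes in type 1, type 2 and mature dendritic cells; points are the control (blue) and LPCAT3-AKO (red) library, bars 95% Poisson intervals of counting error. Idi1 is at 162 and 198 CPM in mature cells and at 4.72 to 13.8 CPM in the other subtypes, while Lbr runs the opposite way.

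The comparison between the libraries asks whether these genes stood at other levels in LPCAT3-AKO than in control. Whether the cells measured had lost LPCAT3 is not known. In fibroblasts 0 of the 11 members tested were called, where 2.11% of all genes were, 1.37% higher and 0.743% lower. Srebf2 was at 22.3 CPM in control and 27.6 in LPCAT3-AKO cells, a ratio of 1.24 (1.15 to 1.34), and Sc5d at 23.8 and 31.3, a ratio of 1.31 (1.22 to 1.42). Insig2 was at 56.6 and 49.5 CPM, a ratio of 0.874 (0.829 to 0.921), and Lbr at 22.7 and 19.5, a ratio of 0.857 (0.788 to 0.932). Thus several intervals leave out 1 while every tested ratio stays within 1.5.

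Across the list, the fibroblast ratios lay slightly above those of the genes tested. The list includes members under 20 CPM, which the genes tested leave out, so the sets are not alike in level. Their median log2 ratio was 0.14, with 19 of 27 above 0, beside a median of -0.00 and 49.7% above 0 over all 6058 genes tested. Icam1-high cells, which hold more of many members, were 12.9% of the control fibroblasts and 20.5% of those from LPCAT3-AKO. With the states weighted alike in both libraries, each by its mean share of cells, the median was 0.08. Within Dpp4-high cells it was 0.10 and within Icam1-high cells -0.00, and no member was called in either, where 1.67% and 1.96% of all genes were. Only Idi1, at 5.93 and 9.56 CPM, differed by over 1.5 times in all fibroblasts (ratio 1.61, 1.40 to 1.86), below the minimum level, where 6.53% of all genes differ with no minimum. That share takes in every gene with any UMI. Within Dpp4-high cells Idi1 was at 4.19 and 4.70 CPM, and within Icam1-high cells at 18.3 and 24.1. In the Ccn5 Mfap4 Cxcl13 cells Srebf2 was called higher (11.8 and 23.7 CPM, from 17 and 56 UMIs) and Npc1 lower (30.5 and 18.6 CPM), where 6.1% of all genes were called.

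In macrophages 0 of 8 members tested were called, where 1.86% of all genes were, 1.34% higher and 0.519% lower. Npc2 was at 810 CPM in control and 893 in LPCAT3-AKO cells (ratio 1.10, 1.08 to 1.12), Npc1 at 73.0 and 81.7 (1.12, 1.06 to 1.19), Lbr at 107 and 125 (1.16, 1.11 to 1.22) and Ebp at 44.5 and 54.6 (1.23, 1.14 to 1.32). Insig1 was at 49.8 and 47.3 CPM (0.951, 0.883 to 1.02). The median log2 ratio was 0.14, with 20 of 27 above 0, beside 0.03 and 59.1% over all genes tested. It was 0.08 with the states weighted alike and 0.09 within resident cells. Dividing cells, which have the most Lbr, were 2.12% of control and 6.87% of LPCAT3-AKO macrophages.

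In dendritic cells 3 of 13 members tested were called, 1 higher and 2 lower in LPCAT3-AKO, where 5.1% and 1.94% of all genes were. Lbr was at 77.4 and 117 CPM, a ratio of 1.51 (1.26 to 1.80) that only just reaches 1.5. Pmvk was at 47.6 and 26.8 CPM (0.563, 0.418 to 0.754) and Idi1 at 27.4 and 16.4 (0.597, 0.404 to 0.874). Mature cells, which have the most Idi1 and Pmvk and almost no Lbr, were 12.4% of control and 4.64% of LPCAT3-AKO dendritic cells. With the 3 subtypes weighted alike in both libraries, each by its mean share of cells, no member was called: Lbr had a ratio of 1.35, Pmvk 0.732 and Idi1 1.09. This alternative was chosen after seeing the data, and its mature part rests on 15 cells in LPCAT3-AKO. Within type 2 cells Insig1 was called higher, at 23.7 and 39.1 CPM (1.65, 1.04 to 2.66), where 7.54% of all genes were called. Within type 1 cells none was, where 7.26% of all genes were.

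In endothelial cells 2 of 13 members tested were called, both higher in LPCAT3-AKO, where 2.23% of all genes were higher and 1.54% lower. Insig1 was at 10.5 CPM from 22 control UMIs and 26.3 CPM from 57 LPCAT3-AKO UMIs, a ratio of 2.51 (1.51 to 4.31). Sc5d was at 9.98 and 20.7 CPM (2.08, 1.21 to 3.67), from 21 and 45 UMIs. The Insig1 ratio was between 2.08 and 2.73 under all 6 alternatives and lost its call only with cells thinned to 2000 UMIs, where it was 2.38, whereas Sc5d lost its call under 3 of 6 and was at 0.509 thinned. Stard4, higher here than in fibroblasts, was at 39.0 and 44.2 CPM. In T cells Cyp51 was lower, at 31.4 and 10.7 CPM from 15 and 6 UMIs (0.342, 0.109 to 0.934), a call lost with the stricter gate and with thinned cells. It was 1 call of 13 tested, where 3.27% of all genes were higher and 5.41% lower.

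In epithelial cells 5 of 16 members tested were called, 4 higher and 1 lower, where 7.29% of all genes were higher and 7.55% lower. Pmvk was at 15.3 CPM in control and 28.0 in LPCAT3-AKO cells (1.82, 1.29 to 2.65), Idi1 at 17.8 and 30.4 (1.71, 1.24 to 2.42), Fdps at 58.1 and 88.4 (1.52, 1.27 to 1.83) and Lbr at 16.5 and 25.7 (1.55, 1.10 to 2.23). Ggps1, which draws on the product of Fdps, was the lower one, at 50 and 30.0 CPM (0.60, 0.480 to 0.752). Fdft1 and Sqle, at 36.3 and 32.8 CPM and 38.3 and 29.2 CPM, were not called. The median log2 ratio of the 27 members, including those under 20 CPM, was 0.40, beside -0.08 over all genes tested.

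These epithelial calls depend on which cells are counted. Doublet removal left 109 of 178 control but 241 of 270 LPCAT3-AKO epithelial cells. Without it the median was 0.21 and all 5 lost their calls, with Pmvk at 1.26, Idi1 at 1.16, Fdps at 1.29, Lbr at 1.03 and Ggps1 at 0.722, while Msmo1 alone was called, at 1.59. With cells thinned to 2000 UMIs, which leaves out 2 cells in each library, the median was 0.09 and 0 members were called, from fewer UMIs. At that equal depth the ratio was 1.57 for Pmvk, 1.64 for Idi1, 1.58 for Fdps, 0.616 for Ggps1 and 1.16 for Lbr. Each lay within its counting interval at full depth, so these ratios do not show which differences depend on depth. The LPCAT3-AKO cells were also deeper, with a median of 23217 UMIs against 17444 in the control, and carried more UMIs of the 10 fibroblast markers, at 768 against 408 CPM. The part of other cells' RNA in these differences was not tested.

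**Figure D5:**
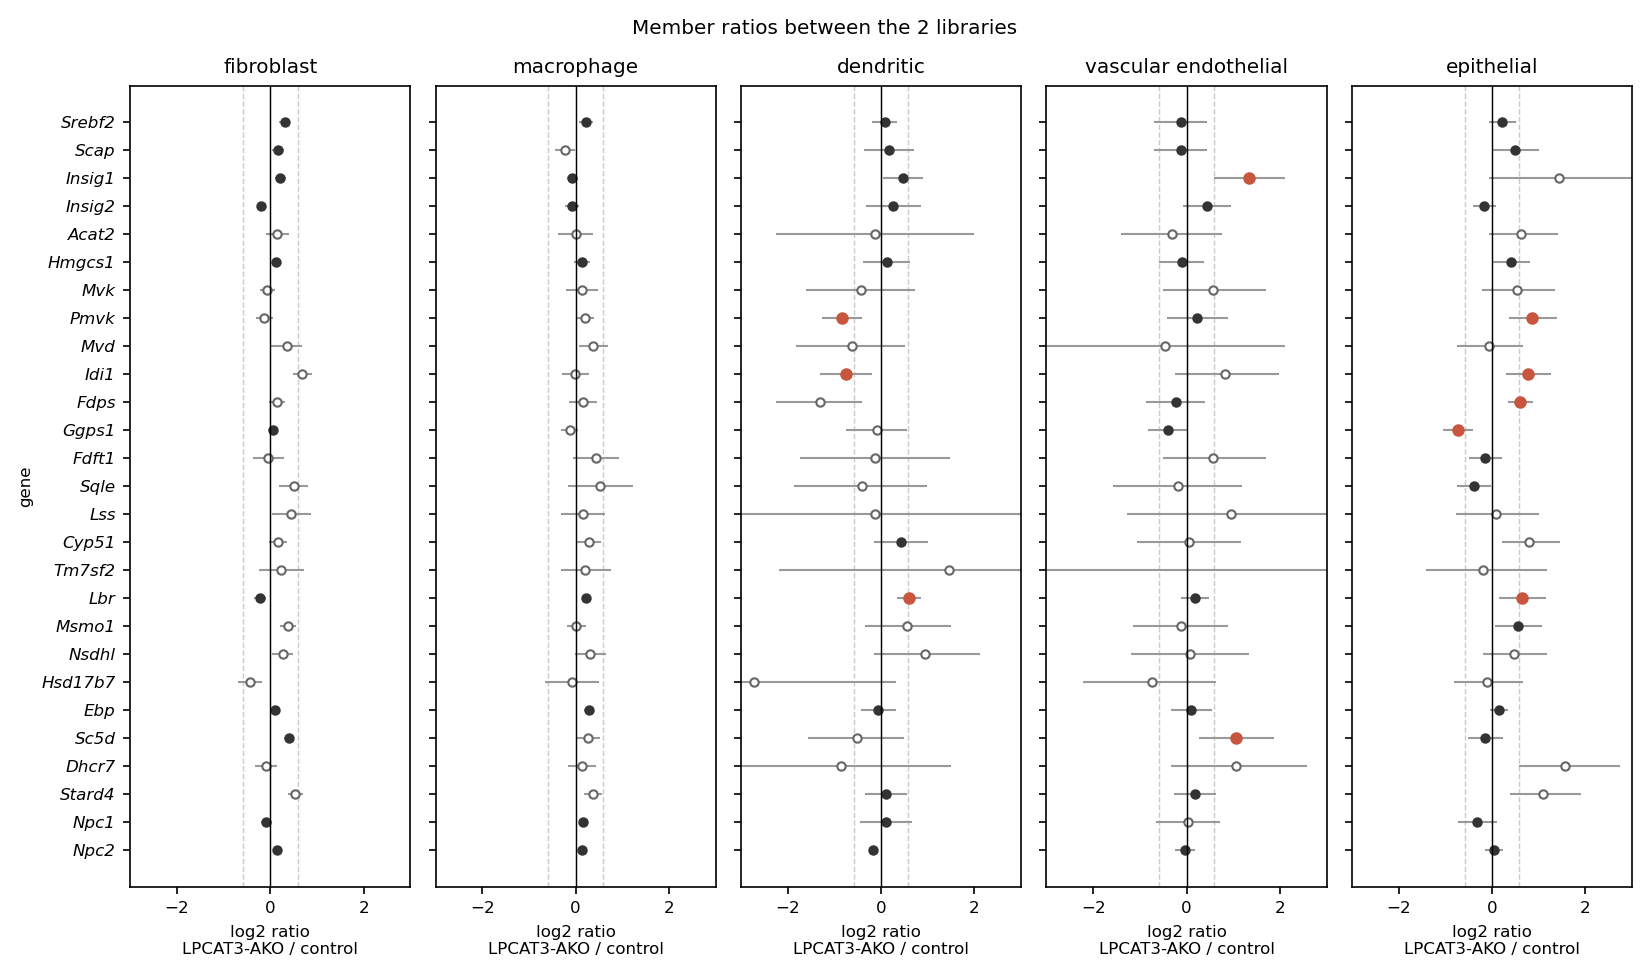
Log2 ratio of the LPCAT3-AKO over the control level for each of the 27 genes in 5 cell classes, with 95% counting intervals cut at the axis ends; filled points reached 20 CPM, open points did not, red points were called, dashed lines mark a ratio of 1.5 either way, and a gene with 0 UMIs in 1 library has no point. Fibroblasts and macrophages have no red point, while Insig1 in endothelial cells lies farthest out among the called genes, at a ratio of 2.51.

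The rest of the pathway was covered by 45 further genes in 6 lists: SREBP processing and sterol sensor turnover, the isoprenoid branch, sterol transport and storage, oxysterol enzymes, efflux with the LXR receptors, and the fatty acid arm of SREBP. Between the libraries 0 of 28 tested were called in fibroblasts, with a median log2 ratio of -0.01, and 1 of 25 in macrophages, where 2.11% and 1.86% of all genes were. That 1 was Apoe, the lipoprotein that takes up exported cholesterol, at 10629 CPM in control and 6802 in LPCAT3-AKO cells. Apoe was also lower in dendritic cells (199 and 111 CPM), epithelial cells (250 and 121) and T cells (316 and 181). It was not called in fibroblasts (545 and 452 CPM) or endothelial cells. The part of macrophage RNA in the Apoe levels of other classes was not tested. Dendritic cells further had Rnf139 and Stard3 higher and Syvn1 lower, 4 calls of 22 tested, where 7.03% of all genes were called. Endothelial cells had Rnf139 lower, 1 of 26, where 3.77% were. Epithelial cells had Tmem97 and Fads2 higher, 3 calls of 25, where 14.8% were. T cells had Rnf139, Gramd1b and Acaca higher and Nfe2l1 lower, 5 calls of 21, where 8.68% were.

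The same genes were set beside each other across cell types. Against fibroblasts, epithelial cells had 4 of 28 tested higher (Gramd1a, Stard3, Elovl6 and Me1) and 10 lower in both libraries, where 28.3% and 26.6% of all genes were. Among the lower were Abca1, the pump that exports cholesterol, at 6.86 and 8.17 CPM against 212 and 184, and Soat1, which esterifies it for storage, at 12.5 and 9.71 against 36.3 and 41.4. Icam1-high cells had 6 of 31 higher than Dpp4-high cells and 4 lower, where 12.5% and 12.4% of all genes were, so the lower count is at the share over all genes. The higher ones included Apoe (1853 and 1176 CPM against 235 and 148), the LXR gene Nr1h3 (48.9 and 46.5 against 12.8 and 12.9), Soat1 (60.9 and 71.1 against 29.8 and 28.5) and Tmem97 (24.8 and 20.3 against 7.96 and 7.26). Mylip, an LXR target, was among the lower ones at 22.5 and 21.8 against 111 and 108 CPM. Macrophages had 12 of 30 higher than fibroblasts, among them Soat1, Lipa, Nceh1, Abca1, Abcg1 and Apoe, and 6 lower, among them Srebf1, Scd1 and Scd2, where 31.1% and 26.5% of all genes were.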

How the data were processed

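The values deposited for both libraries are raw UMI counts, whole numbers per gene and cell barcode, as the authors' counting gave them. Per the submitters' processing notes, Cell Ranger 6.1.2 and Seurat 4.10 were used with the mm10 build. Sources used here give no annotation release or strand setting. The members, lists and markers were chosen with earlier results of these data known. Barcodes with 500 or more genes and at most 10% mitochondrial UMIs were kept. Scrublet (scanpy 1.11.5) scored doublets per library, and 0.8% of kept cells per 1000 kept cells were removed, 1235 control and 1088 LPCAT3-AKO cells (Scrublet's own threshold called 589 and 560).

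Classes and states were gated on markers, with no clustering, by a rule set after seeing the data. A marker was shown by a cell with a UMI of it at 5% or more of the mean of the 50 highest cells (10% for states). Each cell went to the class whose list it showed most fully, at 40% or more and 1.25 times the next class. Dividing cells showed 50% and interferon-high cells 75% of their list. This gated 95.2% and 95.1% of cells. Between 2 and 203 cells per class and library lay near the gate, with 203 of 4112 and 199 of 3203 macrophages. The shares were larger for endothelial cells, at 39 of 196 and 35 of 209, and for dendritic cells, at 35 of 347 and 54 of 323.

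UMIs were summed per class and library and given per 1000000 (CPM), with exact Poisson 95% intervals; ratios carry exact binomial intervals and log2 ratios used CPM + 1. The size rule (20 CPM, ratio 1.5, interval without 1) was applied between libraries in classes and states with 100 or more cells in both, and between cell types when it held in both libraries. Named genes were every member past the rule, the 8 highest in fibroblasts, and the 4 sensing genes. Median UMIs per cell ran from 2993 in T to 23217 in epithelial cells, so T cell values rest on few UMIs. The rule was tested on simulated fibroblast counts. Bulk RNA sequencing of the study was not analysed here.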

Additional observations from a re-analysis of the deposited data

Results flagged for a closer look

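Pmvk and Idi1 differed between the libraries in opposite directions in 2 cell classes. The ratio of LPCAT3-AKO over control for Pmvk was 1.82 in epithelial cells and 0.563 in dendritic cells. For Idi1 it was 1.71 in epithelial cells and 0.597 in dendritic cells. With 1 library per group, the difference between the classes was not tested. Under the alternatives tried, the Pmvk ratio ran from 1.26 to 1.94 in epithelial and 0.532 to 0.732 in dendritic cells, and the Idi1 ratio from 1.16 to 1.81 and 0.459 to 1.09.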

How the results depend on the processing

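No paired analysis was possible because each group is 1 library. The count of members past the size rule between libraries moved as follows. In fibroblasts it was 1 with no minimum level. In macrophages it was 1 with cells thinned to 2000 UMIs. In dendritic cells it was 1 as a mean over cells, 1 thinned and 0 with subtypes weighted alike, where Idi1 reversed to 1.09. In endothelial cells it was 4 with the stricter gate, 1 as a mean over cells and 1 thinned, where Sc5d reversed to 0.509. In epithelial cells it was 3 with 1000 genes and 5% mitochondrial UMIs (70 control cells), 1 without doublet removal, 0 thinned and 8 with no minimum. In T cells it was 3 with 1000 genes and 5%, 0 with the stricter gate, 0 thinned and 3 with no minimum. The cause of these moves was not tested, except that the last setting tests more genes.

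Thinning moved the summed CPM of the 27 members to 919 in control and 1015 in LPCAT3-AKO fibroblasts, 1398 in LPCAT3-AKO macrophages, 1512 in control dendritic, 740 in LPCAT3-AKO endothelial and 827 in control epithelial cells. With no minimum, members lower than in fibroblasts became 8 in macrophages and 7 in dendritic cells, and those higher became 5 in endothelial and 13 in epithelial cells, while Icam1-high cells had 10 higher and 1 lower than Dpp4-high cells. The other 118 recomputed values were labelled the same, within 1.5 times for counts or within counting error for sums. Medians were held to the median half-width of a single member's counting interval, which is not the counting error of a median. Under that limit the epithelial median, 0.40, still counted as the same at 0.09 thinned and 0.21 without doublet removal. The dendritic median went from -0.05 to 0.07 with the stricter gate. Scaling by the median of ratios shifted no class by more than 0.08 (log2) in size. Counting intervals leave out the spread between mice, which 1 library per group cannot show.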
